A study of Homo sapiens with 6 samples.

Results

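Caveolae are flask-shaped pits of the plasma membrane, and 7 genes that build them were looked up in a comparison of A549 cells carrying an shRNA against S100A4 with A549 cells carrying a control shRNA. The genes were taken by name (CAVIN2, CAVIN1, CAVIN3, CAV1, CAV2, EHD2 and PACSIN2), and 6 of the 7 were found among the 25141 genes of the value table, each with 1 transcript cluster (all probes laid on 1 transcribed unit). PACSIN2 was not analysed here. The table names the cavins by older symbols, SDPR for CAVIN2, PTRF for CAVIN1 and PRKCDBP for CAVIN3. The family was chosen on the signal of CAVIN2, whose group difference on these same arrays was already known, so its values are given as a description with no test, and the other 5 genes are read with the fit across all genes.

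The A549 line comes from a human lung adenocarcinoma. The first group is A549 with a stably expressed lentiviral shRNA against S100A4, and the second is A549 with a stably expressed lentiviral control shRNA, with 3 arrays labelled as biological replicates in each. Both lines grew in medium with 10% serum to about 70% confluence. The labels name 1 shRNA per group, so the p-values cover the spread between these samples and not differences between shRNAs or between separately made lines. Total RNA was read on a whole-transcript array, and each value is a log2 signal, so that a difference of 1 is a doubling.

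In a caveola, caveolins sit in the inner leaflet of the membrane and bind cholesterol, and cavins form a coat over them from the cytoplasm. CAVIN1 is required for the pit to form, and CAVIN2 and CAVIN3 join its coat and shape it. EHD2, an ATPase, forms rings at the neck, and PACSIN2 bends the membrane there. Caveolae flatten when a membrane is stretched, and they are abundant in endothelial cells, fat cells, muscle and the flat alveolar type I cells of the lung.

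The shRNA target came first. S100A4, a small calcium-binding protein tied to metastasis, read 5.74, 5.51 and 5.44 on the S100A4 shRNA arrays against 7.57, 7.12 and 7.18 on the control shRNA arrays. The groups did not overlap, and the target was 3.32-fold lower (log2 fold -1.73, SE 0.13, limma adjusted p = 0.000453).

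CAVIN2 was the caveolar gene with by far the widest gap between the groups. It read 7.29, 6.62 and 6.99 with S100A4 shRNA against 9.26, 8.91 and 9.02 with control shRNA. The highest S100A4 shRNA array was 1.62 log2 units below the lowest control array. The means were 6.97 ± 0.33 with S100A4 shRNA and 9.06 ± 0.18 with control shRNA (log2 signal, SD, n = 3 each). The fold on the log2 scale was -2.09 (SE 0.17), which is 4.27-fold lower. By log2 fold CAVIN2 ranked 4 among the falls of all 25141 genes.

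With S100A4 shRNA the level of CAVIN2 lay within the range of the array's negative controls, which are probe sets for introns of housekeeping genes. CAVIN2 exceeded its own array's 95th percentile of these probe sets on 0 of 3 S100A4 shRNA arrays and on 3 of 3 control shRNA arrays. S100A4 did so on 0 of 3 and 2 of 3. The folds of both genes therefore involve a signal under that percentile. The median of these probe sets was lower, 4.18 on average over the S100A4 shRNA arrays. On S100A4 shRNA array 1 CAVIN2 and the percentile both round to 7.29. In the authors' deposited table, a second summary of the same comparison, CAVIN2 averaged 6.04 with S100A4 shRNA and 7.13 with control shRNA, a ratio of 0.471. That is a log2 difference of -1.09, about 1 log2 unit smaller than in the value table. For S100A4 the authors' deposited table has a log2 difference of -1.36, a larger fall than that of CAVIN2, so the order of these genes depends on the summary read.

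The sequence before the annotated start of CAVIN2 is shown because the gene carries the family's widest change. It holds the 250 bases up to the start site (RefSeq, GRCh38.p14, chr2:191847089-191847338, minus strand), printed 5′ to 3′, with the motif that was found in capitals.
CAVIN2: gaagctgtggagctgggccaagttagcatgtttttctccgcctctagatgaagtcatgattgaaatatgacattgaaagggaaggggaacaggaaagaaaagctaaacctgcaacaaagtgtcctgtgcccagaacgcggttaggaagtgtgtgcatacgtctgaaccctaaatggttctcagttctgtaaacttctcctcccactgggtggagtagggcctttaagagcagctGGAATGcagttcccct
The capitals mark GGAATG, the core that TEAD factors bind, which starts at position -16 counted back from the start site. GGAATG or its complement occurs in 11.9% of the 34788 distinct windows of this kind, so a match by itself is common. The window has none of the other motifs searched on both strands. These were TGANTCA for AP-1, held by 6.59% of windows, GGGCGG for the GC box and TATAAA for the core promoter element of that name, held by 10.8%. The motifs were chosen after this sequence had been seen, and a match is a string of letters, not a measured binding site.

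CAVIN1, the cavin that caveolae cannot form without, read 10.35, 9.88 and 10.27 with S100A4 shRNA against 10.51, 10.43 and 10.58 with control shRNA. All 3 S100A4 shRNA arrays were below all control arrays, by 0.081 log2 units at the narrowest point, and array 2 of the S100A4 shRNA group lay well under its 2 partners. The log2 fold was -0.34 (SE 0.12, 95% confidence interval -0.62 to -0.057), and CAVIN1 did not pass the test (limma adjusted p = 0.122). Without S100A4 shRNA replicate 2 the log2 fold was -0.20 (limma adjusted p = 0.148), while quantile normalisation gave -0.36 and a call (limma adjusted p = 0.0455).

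CAVIN3, which brings protein kinase C delta and other partners to the coat, did not pass the test either. It read 6.06, 5.94 and 5.98 with S100A4 shRNA against 6.11, 5.90 and 5.97 with control shRNA, and the groups overlapped fully. The log2 fold was 0.0012 (SE 0.073, limma adjusted p = 0.994), with a confidence interval from -0.17 to 0.17. CAVIN3 exceeded the 95th percentile of the negative controls on 0 of 3 arrays of either group, so a change of its RNA may lie outside what these probes can show. The authors' deposited table gave CAVIN3 a higher level, 7.77 with S100A4 shRNA and 7.86 with control shRNA (ratio 0.939, unadjusted p = 0.00299, and 0.0625 after adjustment over all genes).

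CAV1, the main structural protein of caveolae outside muscle, fell. It read 11.17, 10.89 and 11.13 with S100A4 shRNA against 11.48, 11.42 and 11.54 with control shRNA. The groups were 0.25 log2 units apart at their closest, and array 2 was the lowest in both. The means were 11.07 ± 0.15 with S100A4 shRNA and 11.48 ± 0.06 with control shRNA (log2 signal, SD, n = 3 each). On the log2 scale CAV1 fell by 0.41 (SE 0.086), to 0.751 of the control level (limma adjusted p = 0.0216). The call was lost without control shRNA replicate 1 (limma adjusted p = 0.0592) or control shRNA replicate 3 (0.0838). The ratio in the authors' deposited table was 0.845, with an adjusted p of 0.143.

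CAV2, which partners with CAV1 in the same oligomers and is the next gene to it on chromosome 7, showed no such difference. It read 5.26, 5.26 and 5.25 with S100A4 shRNA against 5.22, 5.23 and 5.25 with control shRNA. These 6 values span less than 0.05 log2 units, and the groups overlapped. The log2 fold was 0.023 (SE 0.054, limma adjusted p = 0.825), with a confidence interval from -0.10 to 0.15. CAV2 exceeded that percentile on 0 of 3 arrays of either group, so the arrays give no firm level for it, and whether the changes of CAV1 and CAV2 differ was not tested.

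The 250 bases before CAV1 and before CAV2 are shown side by side, since these neighbours had different readings here (RefSeq, GRCh38.p14, both on the plus strand, chr7:116524759-116525008 for CAV1 and chr7:116499488-116499737 for CAV2). Capitals mark GGGCGG and its complement CCGCCC, the GC box that Sp1 and related factors bind.
CAV1: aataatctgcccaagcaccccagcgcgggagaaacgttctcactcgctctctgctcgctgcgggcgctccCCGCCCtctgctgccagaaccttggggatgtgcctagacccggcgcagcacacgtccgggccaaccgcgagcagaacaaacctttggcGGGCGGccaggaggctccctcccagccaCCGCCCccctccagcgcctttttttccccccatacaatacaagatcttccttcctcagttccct
CAV2: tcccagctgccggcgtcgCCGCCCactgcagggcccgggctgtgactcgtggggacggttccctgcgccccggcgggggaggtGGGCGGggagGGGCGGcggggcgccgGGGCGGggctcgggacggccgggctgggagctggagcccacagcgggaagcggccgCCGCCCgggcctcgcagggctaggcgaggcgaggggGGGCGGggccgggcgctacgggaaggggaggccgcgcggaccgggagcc
The CAV1 window held 3 GC boxes and was 63.6% G and C, and the CAV2 window held 6 and was 83.2% G and C. RefSeq gave 3 windows for CAV1 and 2 for CAV2. The one nearest the outer 5′ end of each gene was taken, and the others are not shown. The CAVIN2 window above held none and was 48.0% G and C, against a median of 58.0% over all windows. A GC box occurs in 42.6% of them. Neither caveolin window held the TEAD, AP-1 or TATA motif. A link between these sequences and the readings was not tested. CAV2 exceeded the negative control percentile on 0 of 3 arrays of either group, so its reading does not show that the 2 genes respond differently.

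EHD2, the ATPase at the neck of the pit, read 11.30, 11.04 and 11.20 with S100A4 shRNA against 11.28, 11.02 and 11.19 with control shRNA. The groups lay on top of each other and well above the negative controls. The log2 fold was 0.017 (SE 0.095, limma adjusted p = 0.932), and its confidence interval of -0.20 to 0.24 leaves room for a linear ratio between 0.868 and 1.18. Within each group the 3 arrays kept the same order, with array 2 lowest and array 1 highest.

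**Figure D1:**
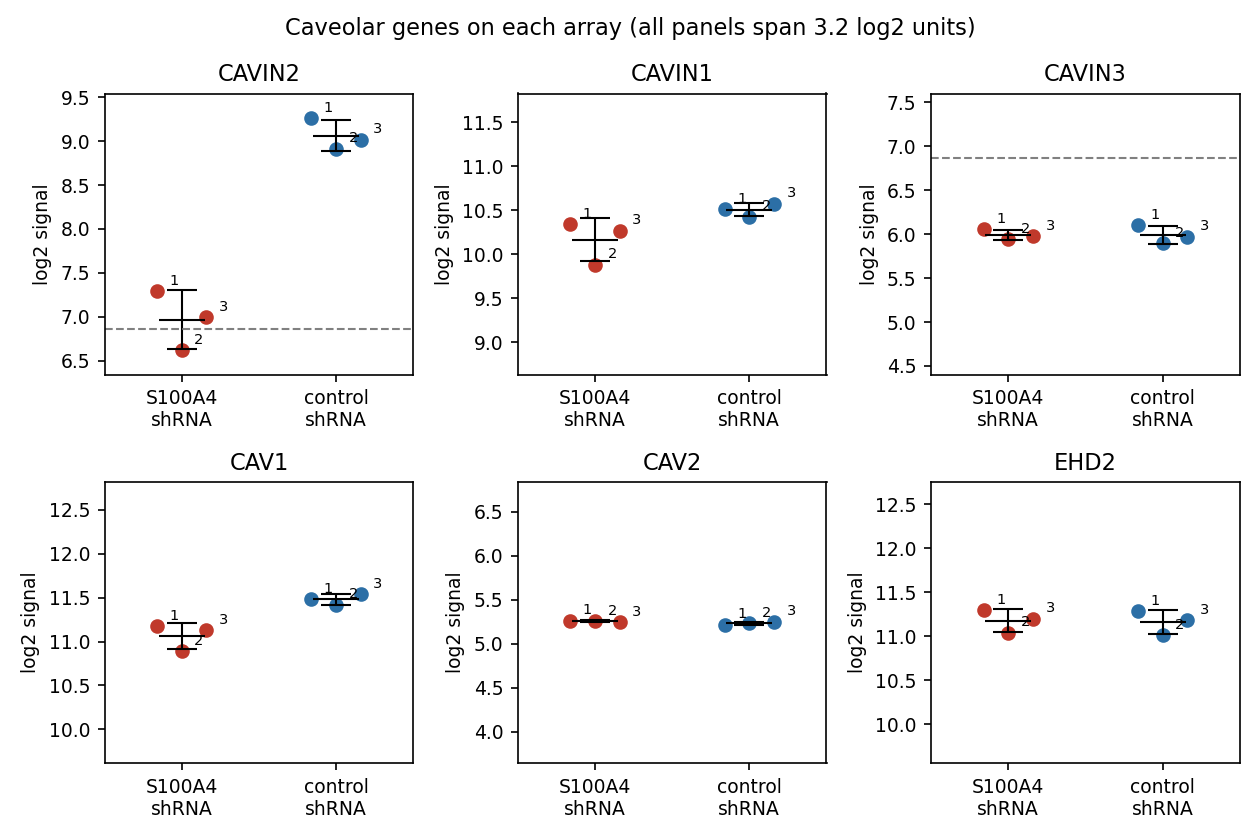
Log2 signal of the 6 measured caveolar genes on each array, S100A4 shRNA in red and control shRNA in blue, with the replicate number beside each point and the mean and SD as black bars. All panels have the same span, and the dashed line is the 95th percentile of the negative control probe sets (6.86), which CAVIN3 stays below and which the S100A4 shRNA values of CAVIN2, 6.62 to 7.29, straddle (panels without a line lie wholly above or below it).

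Set against the whole array, the 5 genes other than CAVIN2 were not unusual in number of calls. Of these 5, 1 fell (CAV1), 0 rose and 4 were not called, where limma called 11.6% of all genes (5.49% lower and 6.08% higher). The groups did not overlap, with S100A4 shRNA lower, for CAV1 and CAVIN1, 2 of 5, against 18.5% of all genes (32.8% in either direction). With so few genes these shares are a count and no more.

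In the authors' deposited table all 5 had a ratio below 1, between 0.845 for CAV1 and 0.958 for CAV2, but 63.7% of all genes did too. CAV2, EHD2 and CAVIN3 had log2 folds of 0.023, 0.017 and 0.0012 in the value table and log2 differences of -0.062, -0.12 and -0.090 in the authors' deposited table. The sign of these 3 small differences therefore depends on which summary is read. Unadjusted p-values in the authors' deposited table were under 0.05 for CAV1 (0.033) and CAVIN3, 2 of 5 genes, against 29.4% of all genes (18.2% with a lower value). After adjustment over all genes it called 0 of the 5, against 2.12% of all genes. With limma the unadjusted p was under 0.05 for 2 of the 5, CAV1 and CAVIN1, against 26.4% of all genes (14.0% lower).

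**Figure D2:**
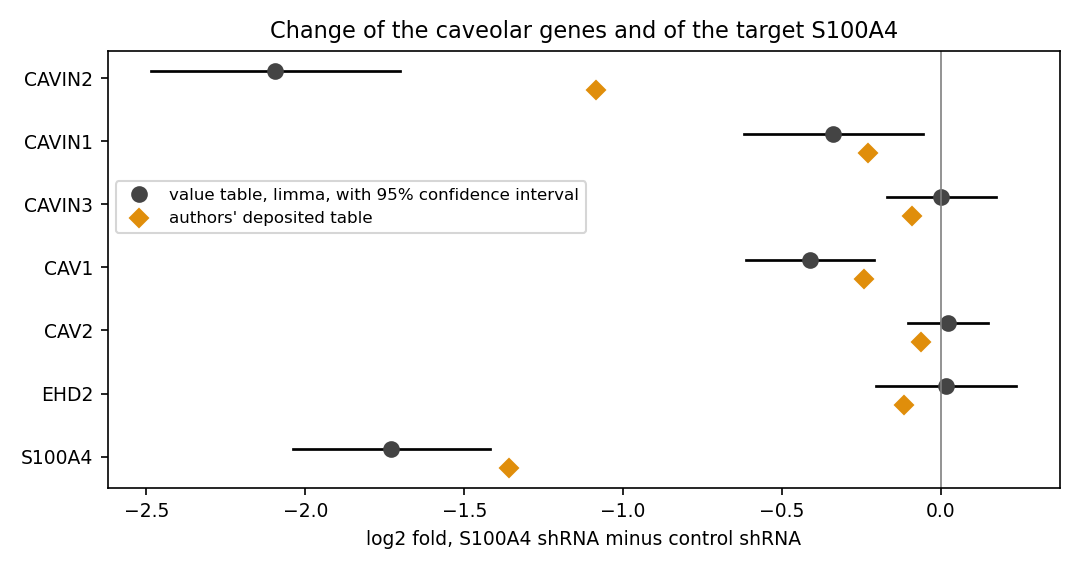
Log2 fold of S100A4 shRNA over control shRNA for the 6 caveolar genes and S100A4, from the value table (circles, with limma's 95% confidence interval as lines) and as the log2 difference in the authors' deposited table (diamonds). CAVIN2 and S100A4 lie far to the left in both, CAV1 and CAVIN1 moderately so, and CAVIN3, CAV2 and EHD2 lie next to 0 on either side.

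Array 2 was the lowest array of its group for most of the 6 genes. In the S100A4 shRNA group array 2 was the lowest for 5 of 6 genes (39.8% of all genes) and array 1 the highest for 6 of 6 (38.1% of all genes). In the control shRNA group array 2 was the lowest for 5 of 6 genes (36% of all genes), and the highest was array 1 for 3 genes and array 3 for 3. CAV2 was the exception in both groups, lowest on S100A4 shRNA array 3 and on control shRNA array 1. The array's positive housekeeping controls, exon probe sets of genes every cell uses, had medians of 13.3, 13.2 and 13.4 on S100A4 shRNA arrays 1 to 3 against 13.6, 13.5 and 13.5 on the control arrays. Their group difference of -0.23 runs the same way as the folds of CAVIN1 and CAV1, and its part in those folds was not tested. The log2 fold of all 2514 genes in the top 10% by mean level had a median of -0.013, and that of all genes -0.034.

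Without S100A4 shRNA replicate 2, CAV1 still passed at a log2 fold of -0.33 (limma adjusted p = 0.0306). CAVIN2 kept a log2 fold between -2.26 and -1.92 whichever array was left out.

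**Figure D3:**
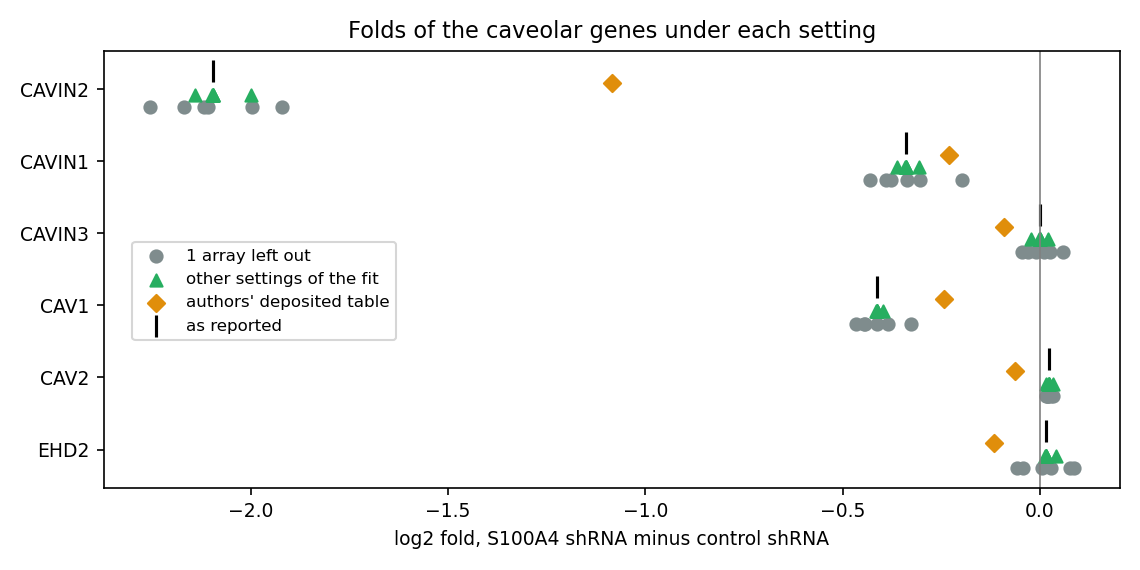
Log2 fold of each caveolar gene as reported (black bar), with 1 array left out (grey circles), under the other settings of the fit (green triangles) and in the authors' deposited table (orange diamonds). CAVIN2 stays between -2.26 and -1.92 in the fits with an array left out and is at -1.09 in the authors' deposited table, and the small folds of CAVIN3 and EHD2 fall on both sides of 0.

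Genes that work with or beside caveolae were then read from 9 lists, which were chosen with earlier results of these data known. Of 135 measured genes 23 rose, 4 fell and 108 were not called, a share called of 20% against 11.6% of all genes. By list the share was 6.25% for clathrin-independent carriers, 9.09% for mechanosensitive genes, and 16.7% both for caveolar relatives and for clathrin. In the other lists it ran from 18.8% for caveolar cargo to 42.9% for cholesterol and sphingomyelin. The listed genes were also more often above the negative control threshold (72.6% against 34.3% of all genes). The median log2 fold over the lists was 0.053, against -0.034 for all genes. The number called over the lists dropped to 16 without S100A4 shRNA replicate 1, 17 without control shRNA replicate 2 and 15 without control shRNA replicate 3. All 27 called genes had the same sign in the authors' deposited table, where 5 of the 135 passed after adjustment.

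The closest relatives of the caveolar genes mostly did not pass. Of 12, EHBP1, a partner of EHD proteins, rose by 0.43 on the log2 scale (limma adjusted p = 0.0145), EHD3, an endosomal relative of EHD2, fell by 0.59 (0.0183), and 10 were not called (median 0.052). Both calls were lost without 1 of several arrays, the largest limma adjusted p being 0.0555 for EHBP1 and 0.0696 for EHD3. The muscle members CAV3 and CAVIN4 had log2 folds of 0.073 and 0.053 at levels below the negative control threshold, the 95th percentile of the mean signal of the intron probe sets. Filamin A, FLNA, which links caveolae to actin, had a log2 fold of -0.23 and the scission GTPase DNM2 one of 0.21, and neither passed.

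Among 14 kinases and turnover factors that act on caveolins or cavins 2 rose, 2 fell and 10 were not called (median 0.11). The autophagy receptor SQSTM1 averaged 8.77 ± 0.10 with S100A4 shRNA and 9.57 ± 0.09 with control shRNA (SD, n = 3 each), which differ by -0.80 (limma adjusted p = 0.00108). FYN, a Src-family kinase, fell by 0.44 (0.00329) at a level of 4.46 with S100A4 shRNA and 4.90 with control shRNA, which is under the negative control threshold. PRKCA, the phosphatidylserine-dependent kinase that binds CAVIN2, rose by 0.43 (limma adjusted p = 0.0444). Its call was lost without any of 4 arrays (limma adjusted p up to 0.135) and after each array was centred on its median.

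Of 13 flotillins and other raft scaffolds 3 rose, 0 fell and 10 were not called (median 0.12). ERLIN1, a cholesterol-sensing scaffold of the endoplasmic reticulum, rose by 0.42 (limma adjusted p = 0.0155), the galectin LGALS3 by 0.27 (0.0288) and PLLP, a myelin and raft protein, by 0.50 (0.0133). Each of these calls was lost without at least 1 array (limma adjusted p up to 0.0573, 0.114 and 0.0529). PLLP averaged 5.44 with S100A4 shRNA and 4.94 with control shRNA, under the negative control threshold. FLOT1 and FLOT2, which form rafts of their own without caveolins, had log2 folds of 0.12 and 0.36, and neither passed. The list held 5 calls with quantile normalisation, with array weights or with the replicate number as a block, and also without control shRNA replicate 1. It held 1 call without S100A4 shRNA replicate 1 or 3, without control shRNA replicate 2 or 3, and in the authors' deposited table.

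The clathrin route, the other main coated pit of the plasma membrane, gave 3 rises, 1 fall and 20 genes not called of 24 (median 0.032). DAB2, an adaptor for integrins and lipoprotein receptors, rose by 0.45 (limma adjusted p = 0.00989), and AP2B1, the beta chain of the AP-2 adaptor, by 0.41 (0.0104). FCHO2, a membrane-bending starter of clathrin pits, rose by 0.33 (0.0457) and the light chain CLTA fell by 0.26 (0.0226). The calls of FCHO2 and CLTA were lost without any of 5 and any of 6 arrays (limma adjusted p up to 0.133 and 0.0892). Among 16 clathrin-independent and membrane-bending genes 1 rose, the small GTPase ARF6 (0.26, limma adjusted p = 0.0411, lost without any of 5 arrays, up to 0.148), 0 fell and 15 were not called.

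Receptors and channels that reside in or near caveolae were read next. Of 16 cargo and signalling genes 3 rose, 0 fell and 13 were not called (median 0.0052), or 5 calls with quantile normalisation, with array weights or with the replicate block. TGFBR1, the type I receptor of TGF-beta, averaged 9.74 ± 0.15 with S100A4 shRNA and 9.05 ± 0.02 with control shRNA (SD, n = 3 each), which differ by 0.69 (limma adjusted p = 0.0026). Its partner TGFBR2 rose by 0.57 (0.0251, lost without any of 4 arrays, up to 0.0857), at levels well above the negative control threshold. The insulin receptor INSR, at levels under that threshold, rose by 0.51 (limma adjusted p = 0.00852). Of 11 mechanosensitive channels and stretch receptors 1 rose, 0 fell and 10 were not called, a share of 9.09% against 11.6% of all genes. The integrin beta chain ITGB1 rose by 0.47 (limma adjusted p = 0.00329).

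Genes that handle cholesterol and sphingomyelin, the lipids caveolae are built on, had the highest share of calls of the 9 lists. It was 42.9%, against 11.6% of all genes. The lists were chosen with earlier results of these data known, so this share is a description and no test. Of the 14 genes, 12 were above the negative control threshold, against 34.3% of all genes. The list holds genes that bring these lipids to the plasma membrane and genes that remove them or break them down. Of 14, 6 rose, 0 fell and 8 were not called, with a median log2 fold of 0.21. GRAMD1B, which carries cholesterol from the plasma membrane to the endoplasmic reticulum, averaged 9.32 ± 0.20 with S100A4 shRNA and 7.94 ± 0.15 with control shRNA (SD, n = 3 each), which differ by 1.38 (limma adjusted p = 0.000615). Its relative GRAMD1A rose by 1.00 (0.00344), the lipoprotein receptor SCARB1 by 0.74 (0.00268) and the cholesterol exporter ABCA1 by 0.57 (0.0107). The acid sphingomyelinase SMPD1, at levels under the negative control threshold, rose by 0.69 (limma adjusted p = 0.011). Only GRAMD1B of the 14 passed in the authors' deposited table, at a log2 difference of 0.58.

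Cavins bind phosphatidylserine, and a list of 15 genes for phospholipid flippases and their subunits, scramblases and phosphatidylserine enzymes was read. Of these 3 rose, 0 fell and 12 were not called (median 0.067). Which of them move phosphatidylserine in these cells was not tested. The flippase ATP8B1 averaged 10.36 ± 0.03 with S100A4 shRNA and 9.50 ± 0.09 with control shRNA (SD, n = 3 each), which differ by 0.86 (limma adjusted p = 0.000473). ANO6, the calcium-activated scramblase, rose by 0.67 (0.0051) and the flippase ATP11B by 0.28 (0.038, lost without any of 5 arrays, up to 0.119). None of the 15 passed in the authors' deposited table.

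**Figure D4:**
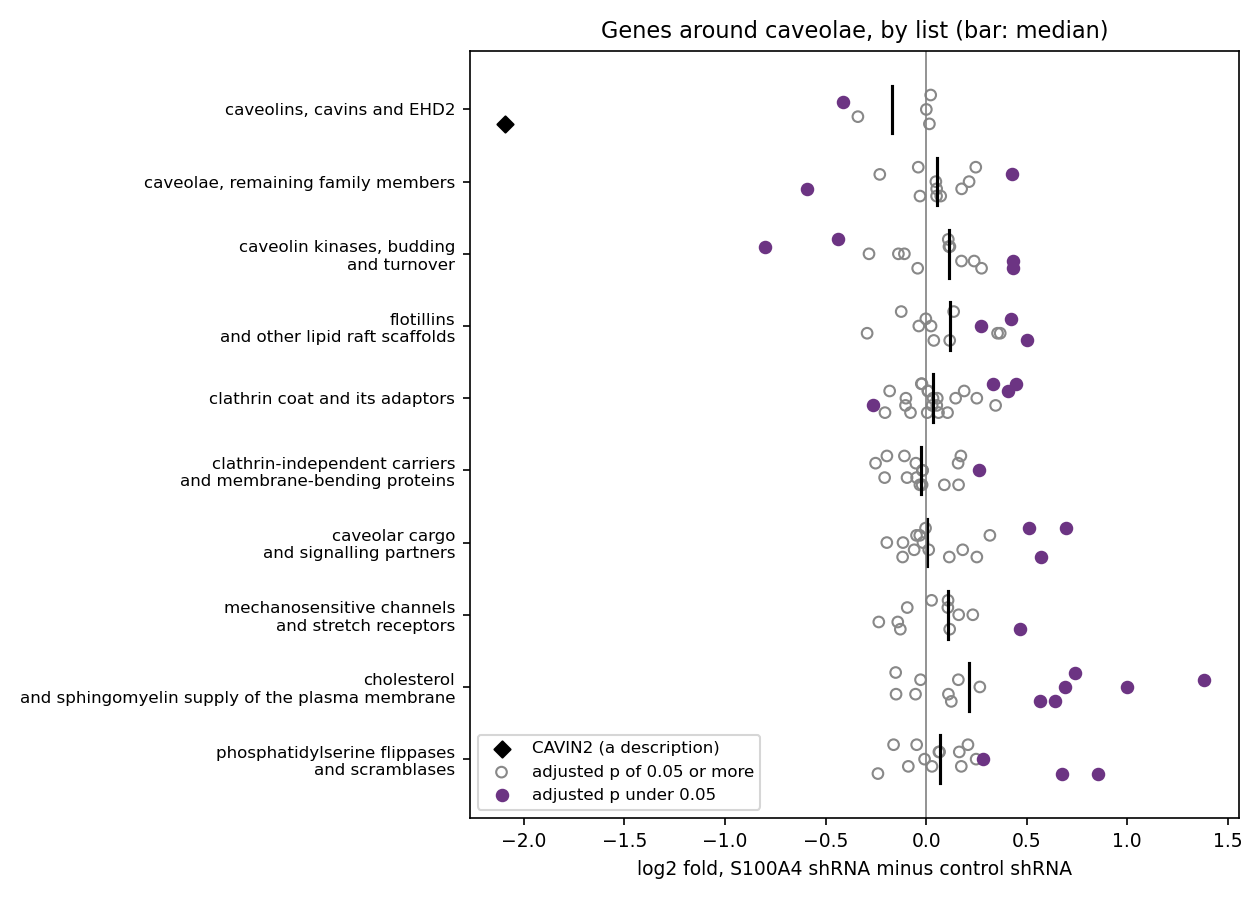
Log2 fold of S100A4 shRNA over control shRNA for each measured gene of the caveolar family and of the 9 lists, with genes called by limma filled, other genes open, CAVIN2 as a black diamond and the median of each row as a bar. The caveolar row extends to -2.09, while calls in the cholesterol and sphingomyelin row are all to the right of 0, up to 1.38.

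Neighbours on the chromosomes were read to see whether a change was shared along the DNA. Of the 50 distinct protein-coding genes among the nearest 5 on each side of the 6 genes, 4 rose and 2 fell. These 6 calls among 50 genes were close to the share called over all genes, 11.6% (6.08% higher). Both falls were near CAVIN2, 2 of 10 genes there, against 5.49% of all genes lower. TMEFF2, the gene next to CAVIN2, averaged 4.40 ± 0.08 with S100A4 shRNA and 4.77 ± 0.05 with control shRNA, under the negative control threshold, and fell by 0.37 (limma adjusted p = 0.011, and 0.0529 without control shRNA replicate 3). A link between the falls at this locus was not tested.

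Beside CAV1 and CAV2 the receptor tyrosine kinase gene MET rose by 0.23 (limma adjusted p = 0.049), a call lost without any of the 6 arrays (up to 0.171). Beside CAVIN1 the transcription factor genes STAT5B (0.57, limma adjusted p = 0.00898) and STAT3 (0.29, 0.042, lost without any of 5 arrays, up to 0.133) rose. SMPD1, given above, is the next gene to CAVIN3, and 0 of 10 genes around EHD2 were called.

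The genes whose 6 values ran most like those of CAVIN2 were sought among 10684 genes with a mean above the median and a recognised symbol. Likeness was the Euclidean distance between the 6 values after each gene's own mean was taken off, so it depends mainly on the size of the group difference. Nearest were VCAN (0.357 log2 units), which encodes the matrix proteoglycan versican, F2RL2 (0.47), a thrombin receptor, and the nuclear receptor NR5A2 (0.491). S100A4 itself followed at 0.582 and COMMD7 at 0.601. Nearest to CAV1 were the mitochondrial ribosome genes MRPL35 (0.0988) and MRPL18 (0.106), the amino acid transporter SLC7A5 (0.103), FAM136A (0.105) and the mitotic kinase PLK1 (0.11). None of the 10 was a caveolar gene. For CAVIN2 the measure set this in advance, since the next lowest log2 fold of a caveolar gene was -0.41 (CAV1). For CAV1 it did so for CAVIN2, CAVIN3 and EHD2, whose log2 folds of -2.09, 0.0012 and 0.017 were far from -0.41. CAV2 had a mean of 5.25, under the median of 5.49, and was not among the genes searched. Of the caveolar genes, that left CAVIN1 (-0.34) as the one that could come near CAV1.

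The epithelial genes CDH1, KRT8, KRT18 and KRT7 were above the negative control threshold, and EPCAM and KRT19 were below it. Among them CDH1 rose by 0.97 (limma adjusted p = 0.0011) and KRT19 by 0.42 (0.0148), while KRT18 fell by 0.58 (0.00478) and KRT8 by 0.44 (0.0313). Of the markers measured for endothelium (10), fibroblasts (8), muscle (6), fat cells (6) and leukocytes (6), 0 were above it, and of 7 alveolar type I markers only EMP2 was, at a log2 fold of -0.017. Of 10 alveolar type II markers only ABCA3 was above it, and it rose by 0.25 (limma adjusted p = 0.0442), while CTSH, at the threshold with S100A4 shRNA and below it with control shRNA, rose by 0.63 (0.00216). The mean over the endothelial list ran from 4.19 to 4.30 on the S100A4 shRNA arrays and from 4.29 to 4.39 on the control arrays, and ESAM fell by 0.45 (limma adjusted p = 0.00539). The fibroblast marker THY1 fell by 0.31 (0.0167), and both genes were under the threshold. The median log2 fold was -0.082 for the endothelial list, -0.056 for fibroblasts, -0.095 for muscle, -0.14 for fat cells and -0.079 for leukocytes. For the intron probe sets the group difference of the array medians was -0.064, so a small downward shift was not particular to the endothelial list.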

How the data were processed

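RNA of 6 A549 samples, 3 per group, was measured on arrays. The value table the authors deposited holds log2 signals, 1 column per array, and the sources used here do not name the program that made it. A workbook deposited beside it gives, per the file headers, the mean log2 value of each group, an unadjusted p-value, a linear ratio and a signed fold for every transcript cluster. The submitters' processing notes name Partek 6.0. Levels in these 2 files correlate across genes at r = 0.78, so they are different summaries.

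Workbook symbols were updated through RefSeq (GRCh38.p14, names and neighbours only), and where a gene had several clusters the one with the highest mean was kept. The 25141 genes were fitted with limma 3.58.1 in R 4.3.3 (lmFit and eBayes, two-sided tests). Its p-values were adjusted across the 25141 genes by the Benjamini-Hochberg method, with 0.05 as the limit for a call. The p-values of the authors' table were adjusted over the same genes. No filter on signal was used. The negative control threshold is the 95th percentile of the means of 646 intron probe sets, 6.86, and it stands in for detection calls. Correlations between arrays of the same group lay between 0.9966 and 0.9978. Precision is limited by the number of arrays.

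The members and lists were chosen with earlier results of these data known. The text names all 6 members, S100A4, up to 4 called genes per list by smallest p, called neighbours, up to 4 detected markers per cell type, and the 5 genes nearest to CAVIN2 and to CAV1. CAV3, CAVIN4, FLNA, DNM2, FLOT1, FLOT2, EPCAM, KRT19, CTSH, ESAM and THY1 were named outside this rule. Some genes that the rule picks are not reported here by name. RefSeq promoter windows matched 4 of the 6 members, CAVIN2, CAV1, CAV2 and EHD2. The limma step was tested on simulated data. The labels give 3 days of culture in one place and 2 in another, and they do not say whether the lines are clones.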

Additional observations from a re-analysis of the deposited data

How the results depend on the processing

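Results were recomputed with each of the 6 arrays left out and under 8 other settings (genes above the median only, quantile normalisation, median centring, the authors' deposited table, the mean of all clusters, the replicate number as a block, array weights, and a variance trend with robust fitting). S100A4 kept its sign and its call under all 14, between -1.82 and -1.59 with an array left out. CAVIN2, a description only, lay between -2.26 and -1.92 with an array left out and at -1.09 in the authors' deposited table. CAV1 ran from -0.47 to -0.33 with an array left out and was -0.24 and not called in the authors' deposited table. CAVIN1 ran from -0.43 to -0.20 and was called under quantile normalisation only (-0.36).

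CAVIN3 ran from -0.046 to 0.058 and turned negative under quantile normalisation (-0.021), median centring (-0.0011) and in the authors' deposited table (-0.090). EHD2 ran from -0.057 to 0.086 with an array left out and was -0.12 in the authors' deposited table, and CAV2, from 0.015 to 0.032, was -0.062 there. The count of called genes among the 5 other than CAVIN2 was 0 or 1 with an array left out, 2 under quantile normalisation and 0 in the authors' deposited table. Calls over all genes ran from 1539 to 2583 with an array left out, under the 2910 of all arrays by over 1.5 times without replicate 1 or 3 of S100A4 shRNA or 2 or 3 of control shRNA, and were 532 in the authors' deposited table. Over the lists they ran from 15 to 27 and were 5, and among neighbours from 4 to 6 and 1. The cause of these differences was not tested.

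Of the 31 called genes that the naming rule picked from lists and neighbourhoods, 16 kept their call without each array in turn. Of the 31, 26 lost it in the authors' deposited table, and no sign turned under any setting that gave a value (27 of the 31 had one among genes above the median).

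Over all genes, deviations of same-numbered arrays from their group means correlated at 0.084, 0.17 and -0.0087. Those of differently numbered arrays correlated at -0.21 to 0.17, so these values do not settle whether the arrays were paired. Among the 6 caveolar genes array 2 was the lowest for 5 in each group. With the replicate block CAV1 was called (-0.41, limma adjusted p = 0.0216), CAVIN1 was not (0.0718), and 3 of these 31 genes lost their call. Low signal limits CAVIN3, CAV2 and, with S100A4 shRNA, CAVIN2. Array weights ran from 0.561 for S100A4 shRNA replicate 2 to 2.17 for control shRNA replicate 3.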
